A study of Rattus norvegicus with 6 samples.

Results

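Osmotic response and water channel genes were followed in rat tail discs by bulk RNA sequencing. The 10 genes were chosen by role, with earlier results of these data known. They are those that the deposited count table names Nfat5, Slc5a3, Slc6a6, Slc6a12, Akr1b1, Aqp1, Aqp3, Aqp5, Aqp9 and Sgk1, of 30562 genes in all. None of these genes passed the test between the groups. Aqp1 and Sgk1 lay lower, and Slc6a12 higher, in every library labelled treated than in every PBS library. These differences did not pass after adjustment over all genes, and 45.8% of all genes tested likewise did not overlap between the groups.

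The disc is a tissue whose fixed negative charges draw in ions and water, and its cells live in a surrounding of high and changing osmolarity. Under hypertonic stress the transcription factor NFAT5 raises transporters and enzymes that fill the cell with small organic osmolytes such as myo-inositol, taurine, betaine and sorbitol. Aquaporins let water, and some of them glycerol and other small solutes, cross the membrane, and cells of the nucleus pulposus are known to use NFAT5 to survive and to keep making aggrecan in their hyperosmotic niche.

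The samples fell into 2 groups of 3 libraries each, from wild-type (WT in the records) Sprague-Dawley rats by the study's methods, males of 12 weeks whose tail disc had been punctured with a needle. The PBS group had the buffer injected. The other group received AF-PTK@LEV@SPP1, a vesicle made by fusing liposomes with bacterial vesicles. It carries a peptide directed to the annulus fibrosus (AF) and an siRNA against Spp1. The dose was 10 μL with 1 mg/kg of siRNA, from 24 h after surgery, and the study's results text gives a treatment of 8 weeks. The sample records differ from this account: they give an untreated control, 14 days of treatment, and macrophages sorted from mouse discs. The most counts went to Col1a1 (4.70% on average), Col1a2 (3.14%), Sparc (2.68%) and Col2a1 (2.22%), which are matrix genes and not macrophage genes. The methods describe the siRNA as designed for the mouse gene. Spp1 had 8119, 4407 and 4416 normalized CPM (counts scaled to library size) in PBS replicates 1, 2 and 3, and 8058, 6907 and 8465 in treated replicates 1, 2 and 3. The groups overlapped, since treated replicates 1 and 2 lay below PBS replicate 1. No fall of the target was found in the libraries labelled treated. Its log2 fold change was 0.31 (SE 0.37, adjusted p 0.628 by edgeR's quasi-likelihood test with Benjamini-Hochberg adjustment). It was 0.81 without PBS replicate 1. The approximate 95% interval ran from 0.652-fold to 2.35-fold, which includes both a fall and a rise. The study measured its knockdown in cultured macrophages, and RNA of disc tissue does not test that. Every direction below is relative to the labels.

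Total counts were 17942989, 16565291 and 17489851 for PBS replicates 1, 2 and 3, and 17074981, 15560728 and 17855184 for treated replicates 1, 2 and 3. At this depth 3 counts, taken as the floor, were 0.154 to 0.193 CPM, which covers counting error only. Between PBS replicates 2 and 3 the scatter was 1.33 times that of sampling alone, and 16 of 14393 genes (0.111%) differed, while other pairs within a group had ratios of 51.3 to 107. This pair was therefore counted as 1 sample, which leaves n = 2 in PBS and n = 3 in the group labelled treated. A mean ± SD below is taken over these distinct samples. An exact permutation test over them can give no p below 0.1, so it cannot reach 0.05. Without PBS replicate 1 the PBS group is 1 distinct sample, so the spread in that fit comes from the group labelled treated alone. For that fit only fold changes and their signs are given, apart from ranges and tallies over the alternatives.

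Over the 5 distinct samples, edgeR's quasi-likelihood test was run on 15537 genes, and 575 (3.70%) had a Benjamini-Hochberg adjusted p under 0.05, 175 higher (1.13%) and 400 lower (2.57%) in the group labelled treated. Of the 10 osmotic response and aquaporin genes, 9 had enough counts to be tested, and 0 passed with edgeR, DESeq2 or limma-voom. At an unadjusted p under 0.05, edgeR had 2 of the 9 (Aqp1 and Slc6a12), DESeq2 1 and limma-voom 1. The edgeR number was 1 without PBS replicate 3, treated replicate 1 or treated replicate 3. Of all genes tested, 25.4% had such a p with edgeR, 28.3% with DESeq2 and 25.6% with limma-voom. After adjustment DESeq2 passed 16.6% of them (7.29% higher and 9.27% lower) and limma-voom 2.92%, which is the background for the counts of these tools below. With the 6 libraries kept apart, 18.1% of 15042 genes passed and 0 of the 9 did, with 3 at an unadjusted p under 0.05 (36.6% of all genes). That fit, here and below, counts the near-identical PBS pair as independent samples. The count over all genes in edgeR was lower when certain libraries were left out. It was 113 without treated replicate 1, and 0 without treated replicate 2 or treated replicate 3. At an unadjusted p under 0.05, edgeR had 3998 of 15363 genes without treated replicate 1. It had 3109 of 15208 without treated replicate 2 and 2699 of 15228 without treated replicate 3. The median absolute log2 fold change was 0.31 over the 9 genes and 0.34 over all genes tested. Of the 9, 6 had a positive and 3 a negative log2 fold change, with any 1 library left out too, and 8420 of all genes tested had a positive one. Values of 3 of the 9 did not overlap between the groups (1 higher, 2 lower), against 45.8% of all genes tested.

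**Figure D1:**
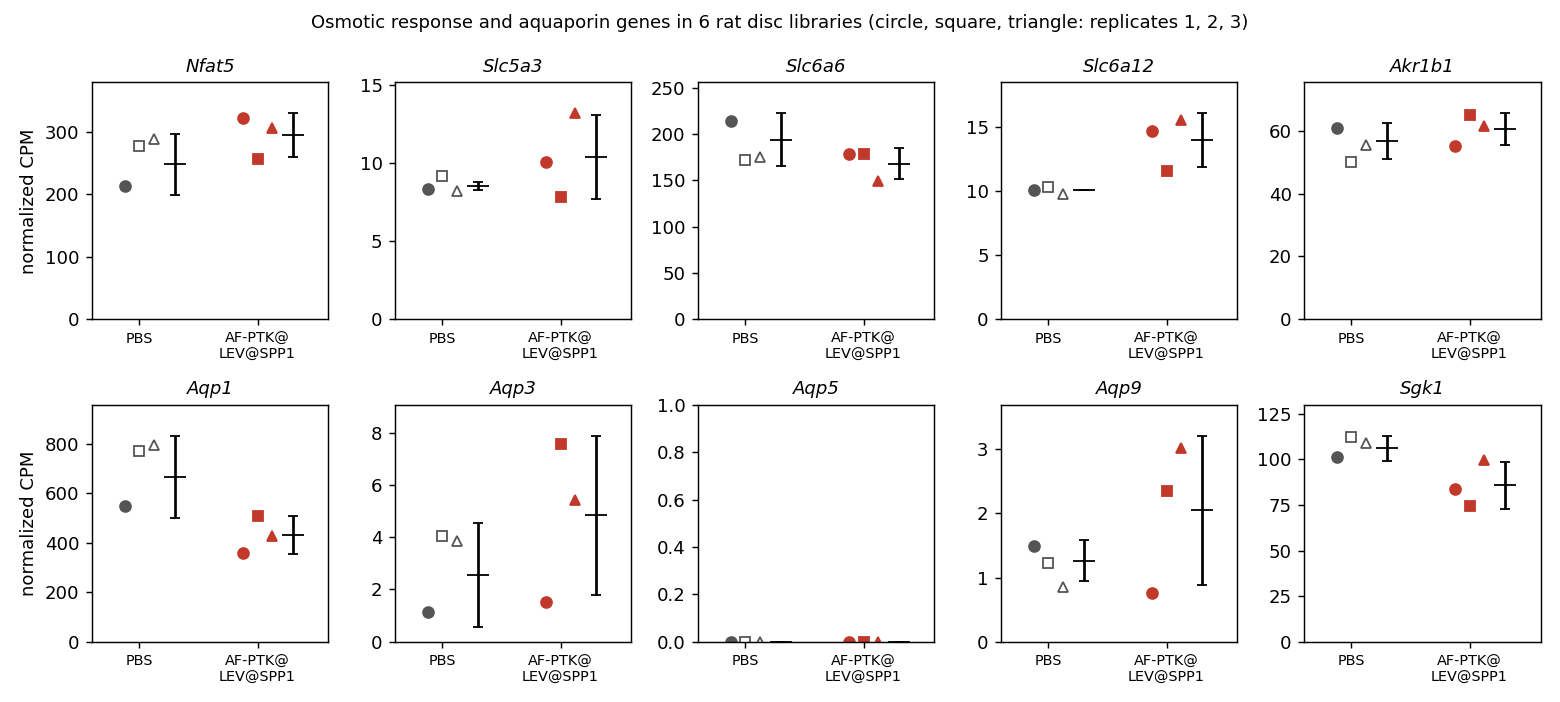
Normalized CPM (vertical axes, linear and starting at 0) of each of the 10 genes in each library, by group; circles, squares and triangles are replicates 1, 2 and 3, the open PBS symbols are the near-identical pair, and the bar at the right of each group is the mean ± SD over distinct samples (n = 2 and n = 3). Aqp1 and Sgk1 lie lower and Slc6a12 higher in the group labelled treated with no overlap, Aqp5 is at 0 in every library, and the groups of the other 6 genes overlap.

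Nfat5 encodes the tonicity-responsive transcription factor itself (ENSRNOG00000011879, chromosome 19, 35199016 to 35286675, plus strand; the table names no build for its rat coordinates). It had 213, 278 and 288 normalized CPM in PBS replicates 1 to 3, and 323, 256 and 307 in treated replicates 1 to 3. The groups overlapped, since treated replicate 2 lay below PBS replicates 2 and 3. The means were 248 ± 49.0 (SD, n = 2) and 295 ± 35.0 (SD, n = 3), and the log2 fold change was 0.24 (SE 0.19, approximate 95% interval -0.25 to 0.73, adjusted p 0.478 by edgeR's quasi-likelihood test with Benjamini-Hochberg adjustment). The interval runs from 0.840-fold to 1.66-fold, and the log2 fold change was 0.04 without PBS replicate 1 and 0.14 without treated replicate 1. NFAT5 is largely controlled through its protein and its entry into the nucleus, which were not measured here.

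The other NFAT factors are switched on by calcineurin and not by tonicity. Of the 4 genes for them, 0 passed with edgeR, DESeq2 or limma-voom, and 1 had an unadjusted p under 0.05 with edgeR, 1 with DESeq2 and 0 with limma-voom. In edgeR this was 2 without treated replicate 1, and 0 without treated replicate 2 or treated replicate 3. Nfatc3, which took the most counts of the 4, had 66.0, 69.9 and 71.0 normalized CPM in PBS and 72.7, 85.1 and 77.9 in the group labelled treated (log2 fold change 0.19, adjusted p 0.351 with edgeR). Nfatc1 had 51.6, 68.1 and 67.1 against 59.5, 40.6 and 38.8, with overlap (log2 fold change -0.38, adjusted p 0.373 with edgeR; -0.56 without PBS replicate 1 and -0.63 without treated replicate 1).

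The osmolyte transporters among the 10 genes are Slc5a3, Slc6a6 and Slc6a12. Slc6a12, the sodium- and chloride-coupled carrier of betaine and GABA (ENSRNOG00000013547, chromosome 4, 154585500 to 154603750, plus strand), had 10.1, 10.3 and 9.77 normalized CPM in PBS and 14.7, 11.6 and 15.6 in the group labelled treated. All 3 libraries labelled treated lay above all 3 PBS libraries. The means were 10.1 ± 0.00339 (SD, n = 2) and 14.0 ± 2.09 (SD, n = 3); this PBS SD is the chance closeness of 2 values, and within the near-identical pair the libraries differed more. On the log2 scale the fold change was 0.46 (SE 0.18), with an unadjusted p of 0.0495 and an adjusted p of 0.196 in edgeR's quasi-likelihood test with Benjamini-Hochberg adjustment, and the two-sided exact permutation p was 0.200. The counts behind it were 196, 161 and 160 in PBS and 250, 192 and 273 in the group labelled treated.

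Slc5a3 encodes the sodium-coupled myo-inositol carrier (ENSRNOG00000067988, chromosome 11, 31295476 to 31318883, plus strand). It had 8.37, 9.19 and 8.24 normalized CPM in PBS and 10.1, 7.85 and 13.2 in the group labelled treated. The groups overlapped, with treated replicate 2 the lowest of all 6 libraries and treated replicate 3 the highest. In the fit, the log2 fold change was 0.27 (SE 0.26, approximate 95% interval -0.37 to 0.92, adjusted p 0.539 with edgeR and Benjamini-Hochberg adjustment). It was 0.44 without treated replicate 2 and 0.07 without treated replicate 3. Its span lies on the same strand as those of Mrps6 and Kcne2, so reads could be split among the 3 genes, and its level is uncertain for that reason. For Mrps6, a mitochondrial ribosomal protein gene, edgeR gave -0.05 (adjusted p 0.907). Kcne2, a potassium channel subunit gene, had 69, 7 and 8 counts in PBS and 29, 35 and 10 in the group labelled treated (log2 fold change -0.44, adjusted p 0.802 with edgeR).

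Slc6a6 encodes the taurine carrier (ENSRNOG00000009019, chromosome 4, 124195218 to 124268875, plus strand). It had 214, 172 and 175 normalized CPM in PBS and 178, 178 and 149 in the group labelled treated. The groups overlapped: treated replicates 1 and 2 lay between PBS replicate 1 and the other PBS libraries. The means were 194 ± 28.4 (SD, n = 2) and 168 ± 17.0 (SD, n = 3), and the log2 fold change was -0.21 (SE 0.16, approximate 95% interval -0.61 to 0.19, adjusted p 0.446 with edgeR and Benjamini-Hochberg adjustment). It was -0.06 without PBS replicate 1 and -0.12 without treated replicate 3. The 3 osmolyte carriers thus had log2 fold changes of different sign, and none passed the test.

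A list of other genes for the uptake and synthesis of inositol, taurine, betaine, glycerophosphocholine and amino acid osmolytes held 17 tested genes. Of these, 0 passed with edgeR and 0 with limma-voom, 5 passed with DESeq2 (16.6% of all genes did), and 6 had an unadjusted p under 0.05 with edgeR. The median log2 fold change was 0.18, and 0.12 over 18 tested genes without PBS replicate 1. A positive log2 fold change was found for 9 of the 17, and for 8420 of all 15537 genes. Slc38a2, the amino acid carrier SNAT2 that hypertonic stress is known to raise, took the most counts of the list, with 242, 304 and 310 normalized CPM in PBS and 373, 308 and 319 in the group labelled treated (log2 fold change 0.27, adjusted p 0.389 with edgeR; 0.10 without PBS replicate 1 and 0.15 without treated replicate 1). Slc6a8, the creatine carrier, had 95.4, 95.4 and 96.4 against 80.5, 69.9 and 63.5 (log2 fold change -0.43, unadjusted p 0.0213, adjusted p 0.134 with edgeR, and adjusted p 0.0396 with the 6 libraries kept apart). Its groups did not overlap.

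**Figure D2:**
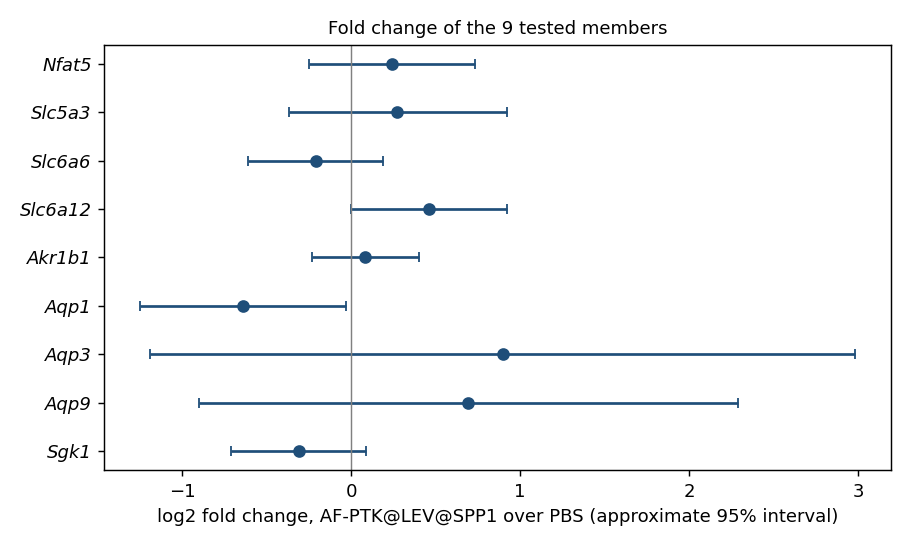
Log2 fold change (horizontal axis) of the group labelled AF-PTK@LEV@SPP1 over PBS for the 9 genes with a test, with approximate 95% intervals from edgeR's quasi-likelihood fit over 5 distinct samples. The interval of Aqp1 (-1.25 to -0.03) lies below 0 and that of Slc6a12 has its lower end at 0.00, before any adjustment for the number of genes; the widest are those of Aqp3 and Aqp9.

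Akr1b1 encodes aldose reductase, which turns glucose into the osmolyte sorbitol (ENSRNOG00000009513, chromosome 4, 62932031 to 62946157, minus strand). It had 60.7, 50 and 55.4 normalized CPM in PBS and 55.1, 65.0 and 61.5 in the group labelled treated. The groups overlapped, and the means of 56.7 ± 5.67 (SD, n = 2) and 60.5 ± 5.02 (SD, n = 3) lay within each other's spread. The log2 fold change of 0.08 (SE 0.12) was the smallest of the 9 in size, and its interval (approximate 95%) ran from 0.850-fold to 1.32-fold (adjusted p 0.711 with edgeR and Benjamini-Hochberg adjustment). The log2 value was 0.18 without PBS replicate 1, 0.05 without PBS replicate 2 and 0.03 without treated replicate 2.

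Akr1b10, a related aldo-keto reductase that acts on lipid aldehydes and retinal, lies close by on the same chromosome (chromosome 4, 62997161 to 63010097, plus strand). It had 35.1, 40.0 and 37.0 normalized CPM in PBS and 11.9, 13.3 and 16.9 in the group labelled treated, with no overlap. It fell in the test, with a log2 fold change of -1.40 (SE 0.18, adjusted p 0.0303 by edgeR's quasi-likelihood test with Benjamini-Hochberg adjustment), while Akr1b1 did not pass; the difference between the genes was not tested. The log2 fold change kept its size with 1 library left out (-1.55 to -1.32). The call was lost without treated replicate 1 (adjusted p 0.0576 with edgeR), treated replicate 2 (0.0974) or treated replicate 3 (0.136). The list then had 0 passing. With DESeq2 on the 5 distinct samples the adjusted p was 2.7e-08. The Akr1b genes are close paralogs, and how reads that match several genes were counted is not stated, so the split of counts among them is uncertain. The macrophage sum (860 to 1293 normalized CPM in PBS and 400 to 616 in the group labelled treated), the osteoclast sum (3388 to 5376 and 483 to 821) and the endothelial sum (622 to 741 and 456 to 542) lay on the same side as Akr1b10; their part in its values was not tested. Of the 7 tested genes of the polyol pathway and aldo-keto reductase list, 1 passed lower and 0 higher with edgeR, 4 had an unadjusted p under 0.05, and DESeq2 passed 3 lower and limma-voom 1 lower. Without treated replicate 2 or treated replicate 3, 2 had an unadjusted p under 0.05. Akr1a1, aldehyde reductase, took the most counts of the list, with 420, 376 and 385 normalized CPM in PBS and 336, 287 and 304 in the group labelled treated (log2 fold change -0.38, adjusted p 0.181 with edgeR and 0.0348 with DESeq2).

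Aqp1 encodes the water channel of endothelium, red cells and many epithelia, which is also known from disc cells (ENSRNOG00000011648, chromosome 4, 84482512 to 84494690, plus strand). It had 550, 772 and 797 normalized CPM in PBS and 357, 510 and 428 in the group labelled treated. All 3 libraries labelled treated lay below all 3 PBS libraries, with a small gap between PBS replicate 1 and treated replicate 2. The means were 667 ± 166 (SD, n = 2) and 432 ± 76.5 (SD, n = 3). This is a log2 fold change of -0.64 (SE 0.24), a ratio of 0.642 with an approximate 95% interval of 0.420 to 0.981, and the difference had an unadjusted p of 0.0434 and an adjusted p of 0.185 in edgeR's quasi-likelihood test with Benjamini-Hochberg adjustment. The two-sided exact permutation p was 0.1, the smallest the design allows. In bulk samples fewer cells of a type and less RNA per cell cannot be told apart.

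The sum of endothelial markers lay on the same side as Aqp1. The 9 genes summed to 622, 741 and 729 normalized CPM in PBS and 456, 534 and 542 in the group labelled treated, with no overlap. Pecam1, its most abundant gene, had 195, 276 and 267 against 135, 148 and 163, and no gene of the list was at 0 in all libraries. Of the 9, 0 passed with edgeR or limma-voom and 4 passed lower with DESeq2 (9.27% of all genes did), and 5 had an unadjusted p under 0.05 with edgeR. Singly, 5 of the 9 were lower without overlap, and 4 overlapped between the groups. Of all genes tested, 45.8% did not overlap, in either direction. The 9 erythroid markers, another known site of Aqp1, summed to 2401, 3186 and 3277 in PBS and 2514, 20722 and 14169 in the group labelled treated, with overlap, led by Hba-a1. The part of endothelial or erythroid RNA in the Aqp1 values was not tested.

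Aqp3 encodes an aquaglyceroporin, which carries glycerol besides water (ENSRNOG00000009797, chromosome 5, 56239201 to 56244720, minus strand). It had 1.13, 4.05 and 3.85 normalized CPM in PBS and 1.53, 7.55 and 5.42 in the group labelled treated, from 22, 63, 63, 26, 125 and 95 counts. Replicate 1 was the lowest of its group in each case, and treated replicate 1 lay below PBS replicates 2 and 3, so the groups overlapped. The coefficient of variation was 78.5% in PBS and 63.2% in the group labelled treated, against 9.99% and 8.30% for Akr1b1. The log2 fold change was 0.90 (SE 0.82), with an approximate 95% interval of 0.438-fold to 7.91-fold (adjusted p 0.532 with edgeR and Benjamini-Hochberg adjustment), and the log2 value was 0.27 without PBS replicate 1 and 0.43 without treated replicate 2.

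Aqp9 encodes an aquaglyceroporin with a broad range of small solutes, known from liver and white blood cells (ENSRNOG00000061883, chromosome 8, 71797234 to 71837395, minus strand). It had 1.49, 1.22 and 0.855 normalized CPM in PBS and 0.765, 2.35 and 3.02 in the group labelled treated, from 29, 19, 14, 13, 39 and 53 counts. Treated replicate 1 was the lowest of the 6 libraries and treated replicates 2 and 3 were the highest. The log2 fold change was 0.69 (SE 0.63, approximate 95% interval 0.535-fold to 4.90-fold, adjusted p 0.526 with edgeR and Benjamini-Hochberg adjustment). The log2 value was 1.06 without treated replicate 1 and 0.31 without treated replicate 3. The neutrophil markers were likewise highest in treated replicates 2 and 3: the list summed to 1202, 194 and 182 normalized CPM in PBS and 316, 3107 and 4204 in the group labelled treated. S100a9 was the most abundant of the 10. Of the 9 tested, 0 passed with edgeR, DESeq2 or limma-voom or had an unadjusted p under 0.05. Without treated replicate 1, 2 had one with edgeR. The median log2 fold change was 1.98, and 4.21 without PBS replicate 1. The part of neutrophil RNA in the Aqp9 values was not tested.

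Aqp5 encodes the water channel of glands, lung and cornea (ENSRNOG00000051970, chromosome 7, 130721748 to 130726209, plus strand). It had 0 counts in each of the 6 libraries, which allows up to 0.154 to 0.193 CPM, and it was not tested. Its span is covered on the same strand by those of 2 gene identifiers that carry the name Aqp6, which also read 0. A read that matches several genes may have been left uncounted, so this 0 cannot be read as the absence of Aqp5 RNA.

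The list of other aquaporins held 9 gene identifiers, of which 3 were tested, and 0 passed with edgeR or limma-voom while 1 passed higher with DESeq2. Aqp7, the aquaglyceroporin of adipocytes, took the most counts, with 50, 2 and 5 in PBS and 115, 215 and 132 in the group labelled treated. These are 2.57, 0.129 and 0.305 normalized CPM against 6.77, 13.0 and 7.53, with no overlap, and PBS replicate 2 lay under the floor. For Aqp7 the log2 fold change was 2.75 (SE 0.99, unadjusted p 0.0366, adjusted p 0.171 with edgeR and Benjamini-Hochberg adjustment), and Aqp7 was the gene that passed with DESeq2 (adjusted p 0.0284, in a range of 0.0284 to 0.318 over the alternatives). Without PBS replicate 1, the PBS library with the most Aqp7, the log2 fold change was 5.32. The PBS group was then 1 distinct sample, from libraries of 2 and 5 counts, so the size of this fold is uncertain. The 8 adipocyte markers lay on the same side: they summed to 755, 159 and 156 normalized CPM in PBS and 1441, 2296 and 1118 in the group labelled treated, with Fabp4 the most abundant and none at 0. Of the 8, 0 passed with edgeR or limma-voom, and 4 passed higher with DESeq2 (7.29% of all genes did). An unadjusted p under 0.05 with edgeR was found for 4, for 2 without treated replicate 1 and for 1 without treated replicate 2. The median log2 fold change was 2.07, and 4.17 without PBS replicate 1. The part of adipocyte RNA in the Aqp7 values was not tested. Aqp11, found on inner membranes of the cell, had 37, 11, 8, 20, 22 and 14 counts and overlapped (log2 fold change -0.17, adjusted p 0.885 with edgeR), and the sign turned without PBS replicate 1 (0.86) or treated replicate 3 (0.02). Aqp2 and both identifiers of Aqp6 were at 0 in every library. Their spans overlap on the same strand, so, as for Aqp5, these counts cannot be read as the absence of their RNA.

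Sgk1 encodes a kinase that glucocorticoids, mineralocorticoids and changes in cell volume are known to induce, and which acts on ion channels and transporters (ENSRNOG00000011815, chromosome 1, 22980261 to 23098283, minus strand). It had 101, 112 and 109 normalized CPM in PBS and 83.5, 74.2 and 99.7 in the group labelled treated. The groups did not overlap, but treated replicate 3 lay just under PBS replicate 1. The means were 106 ± 6.94 (SD, n = 2) and 85.8 ± 12.9 (SD, n = 3), and the log2 fold change was -0.31 (SE 0.16, approximate 95% interval -0.71 to 0.09, adjusted p 0.284 with edgeR and Benjamini-Hochberg adjustment). The two-sided exact permutation p was 0.200.

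Genes of the SGK family and its corticosteroid pathway were listed beside Sgk1, and 16 were tested. Of these, 2 passed higher and 1 lower with edgeR and with DESeq2, and 2 higher and 0 lower with limma-voom. Nr3c2, the mineralocorticoid receptor, rose: it had 12.6, 8.49 and 10 normalized CPM in PBS and 62.4, 35.2 and 48.1 in the group labelled treated, a log2 fold change of 2.14 (SE 0.30, adjusted p 0.0364 by edgeR's quasi-likelihood test with Benjamini-Hochberg adjustment). Zbtb16, a transcription factor known to be induced by glucocorticoids, rose from 7.85, 12.3 and 10.1 to 28.3, 25.2 and 36.3 (log2 fold change 1.64, SE 0.25, adjusted p 0.0402 with edgeR). Hsd11b1, the enzyme that regenerates active glucocorticoid inside cells, fell from 28.1, 50.3 and 49.2 to 9.35, 13.2 and 11.2 (log2 fold change -1.80, SE 0.29, adjusted p 0.0424 with edgeR). None of the 3 overlapped between the groups. The marker sums of nucleus pulposus (633 to 1911 normalized CPM in PBS and 3694 to 7432 in the group labelled treated), adipocytes (156 to 755 and 1118 to 2296) and annulus and tendon (53724 to 75197 and 81174 to 114415) lay on the same side as Nr3c2 and Zbtb16. Those of macrophages (860 to 1293 and 400 to 616), osteoclasts (3388 to 5376 and 483 to 821) and endothelium (622 to 741 and 456 to 542) lay on the side of Hsd11b1. The part of these cells in the values was not tested.

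With 1 library left out the log2 fold changes kept their size, at 1.89 to 2.37 for Nr3c2, 1.40 to 1.75 for Zbtb16 and -2.16 to -1.72 for Hsd11b1, but several calls were lost. Without treated replicate 3 the adjusted p with edgeR was 0.151 for Nr3c2, 0.150 for Zbtb16 and 0.175 for Hsd11b1, and without treated replicate 2 it was 0.0733, 0.0888 and 0.103. Without treated replicate 1 it was 0.0602, 0.0758 and 0.0814. Zbtb16 had 0.0503 without PBS replicate 3. Without PBS replicate 1, which leaves 1 distinct PBS sample, the log2 fold changes were 2.37 for Nr3c2, 1.40 for Zbtb16 and -2.16 for Hsd11b1. Over all alternatives the adjusted p reached down to 2.77e-08, 1.46e-06 and 5.11e-06, each with DESeq2. Of the 16 genes, 15 had a positive log2 fold change, as had 8420 of all 15537 genes tested, and the median was 0.50 against 0.05. The number was 15 under each other scaling of the libraries, and 14 without treated replicate 1 or treated replicate 3. Sgk1 itself, at -0.31, had the opposite sign to the list's median. Ndrg1, a substrate of SGK1 and the gene of the list with the most counts, had 196, 319 and 317 normalized CPM in PBS and 500, 192 and 288 in the group labelled treated, with overlap (log2 fold change 0.34, adjusted p 0.677 with edgeR), and it was 0.02 without PBS replicate 1, -0.14 without treated replicate 1 and 0.61 without treated replicate 2. Nr3c1, the glucocorticoid receptor, had 156, 176 and 172 against 194, 195 and 209 (log2 fold change 0.26, adjusted p 0.254 with edgeR).

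**Figure D3:**
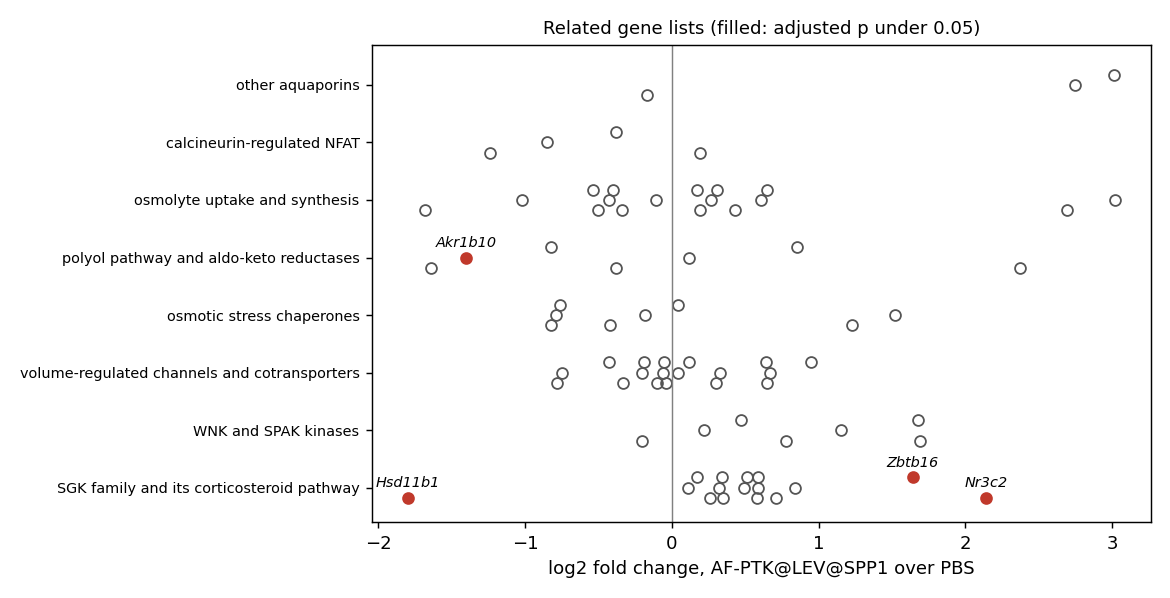
Log2 fold change (horizontal axis) of each tested gene of 8 related gene lists, for the group labelled AF-PTK@LEV@SPP1 over PBS; points are spread vertically within a list for legibility, and filled points have an adjusted p under 0.05 in edgeR. Of the filled genes, Akr1b10 and Hsd11b1 lie left of 0 and Nr3c2 and Zbtb16 right of 0.

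WNK kinases sense chloride and osmolarity and act through the kinases SPAK and OSR1 on the cation-chloride cotransporters that set cell volume. Of 7 tested genes of this list, 0 passed with edgeR or limma-voom and 1 passed higher with DESeq2. With edgeR, 4 had an unadjusted p under 0.05, or 2 without treated replicate 3. Wnk1, with the most counts of the list, had 259, 205 and 220 normalized CPM in PBS and 1101, 552 and 624 in the group labelled treated. Every library labelled treated lay above every PBS library. Wnk1 had a log2 fold change of 1.68 (SE 0.37, adjusted p 0.0746 with edgeR and Benjamini-Hochberg adjustment; 0.0138 with the 6 libraries kept apart, 0.0385 with a replicate block, 0.000197 with DESeq2, in a range up to 0.188 over the alternatives). The fits with the 6 libraries kept apart and with the replicate block count the near-identical PBS pair as independent samples. Cab39, an activator of SPAK and OSR1, had 170, 193 and 190 against 157, 155 and 167 (log2 fold change -0.20, adjusted p 0.363 with edgeR). Of the 7 genes, 6 had a positive log2 fold change, here and under each other scaling, and 5 had one without PBS replicate 1. Over all genes in the fit of 5 distinct samples it was 8420 of 15537.

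Volume-regulated channels, cotransporters and ion pump subunits were represented by 18 tested genes. Of these, 0 passed with edgeR or limma-voom, 2 passed with DESeq2 (1 higher, 1 lower), and 5 had an unadjusted p under 0.05 with edgeR, or 3 without treated replicate 1 and 2 without treated replicate 3. Slc12a2, the cotransporter NKCC1 that brings chloride into shrunken cells, took the most counts, with 272, 190 and 186 normalized CPM in PBS and 642, 317 and 384 in the group labelled treated. Every library labelled treated lay above every PBS library, with treated replicate 1 the highest (log2 fold change 0.95, SE 0.37, adjusted p 0.191 with edgeR and Benjamini-Hochberg adjustment; 0.57 without treated replicate 1). Atp1b3, an ion pump beta subunit, had 283, 234 and 239 against 287, 233 and 242, with overlap (log2 fold change -0.04, adjusted p 0.892 with edgeR), and the sign turned without PBS replicate 1 (0.08) or treated replicate 2 (0.02).

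Chaperones linked to osmotic stress were represented by 8 tested genes, of which 0 passed with edgeR or limma-voom, 3 passed with DESeq2 (1 higher, 2 lower) and 3 had an unadjusted p under 0.05 with edgeR, or 5 without treated replicate 1. Hspa4, an exchange factor for the chaperone HSP70, had 171, 179 and 178 normalized CPM in PBS and 132, 132 and 130 in the group labelled treated. The log2 fold change was -0.42 (SE 0.10) with no overlap, and the adjusted p was 0.0913 with edgeR and Benjamini-Hochberg adjustment, 0.0177 with the 6 libraries kept apart and 5.7e-05 with DESeq2. Hspb1, a small heat shock protein, had 28.9, 43.8 and 38.1 against 137, 48.7 and 62.5, with treated replicate 1 far above the rest (log2 fold change 1.23, adjusted p 0.205 with edgeR; 0.63 without treated replicate 1).

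The summed RNA of cell type markers differed between and within the groups, and cell numbers were not measured. The markers of nucleus pulposus and notochord summed to 1911, 637 and 633 normalized CPM in PBS and 7432, 4169 and 3694 in the group labelled treated, with Car3 the most abundant and Noto at 0. Of the 10 tested, 0 passed with edgeR or limma-voom, and 6 passed higher with DESeq2 (7.29% of all genes did). A positive log2 fold change was found for 9 and a negative one for 1, and 7 were positive without treated replicate 1. The sum, led by Car3, therefore does not stand for each gene. With edgeR 6 had an unadjusted p under 0.05, or 3 without treated replicate 1 or treated replicate 3. With the 6 libraries kept apart, edgeR passed 2 of 9 higher, and 4 of 9 with the replicate block. Of all 15042 genes, 1233 and 307 were higher in these fits. The nucleus pulposus, adipocyte, and annulus and tendon sums, like Slc6a12 and Wnk1, were higher in every library labelled treated than in every PBS library. The part of these cells in the Slc6a12 and Wnk1 values was not tested. Cartilage markers, led by Col2a1, summed to 24180, 35277 and 35114 in PBS and 43771, 31022 and 48520 in the group labelled treated, with 1 gene higher with edgeR and limma-voom, and 1 higher and 1 lower with DESeq2. The edgeR count was 0 without any 1 of the treated replicates. Annulus and tendon markers, led by Col1a1, summed to 53724, 74320 and 75197 in PBS and 114415, 81174 and 96746 in the group labelled treated. Col1a1 alone had 31905 of this sum in PBS replicate 1 and 64109 in treated replicate 1. Of the 8 genes, 6 had a positive and 2 a negative log2 fold change, so the sum does not stand for each gene. The median was 0.48, and 0.16 without PBS replicate 1. In edgeR or limma-voom 0 passed, and in DESeq2 2 did. In edgeR 1 had an unadjusted p under 0.05 (0 without treated replicate 3).

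Among the blood and bone lists, the macrophage and monocyte markers, led by Csf1r, summed to 1293, 862 and 860 normalized CPM in PBS and 400, 616 and 524 in the group labelled treated, and 2 of the 10 passed lower with edgeR, 4 with DESeq2 and 2 with limma-voom. Without treated replicate 1, 1 passed with edgeR. Without treated replicate 2 or treated replicate 3, 0 did, with 5 and 4 at an unadjusted p under 0.05. The median log2 fold change was -0.88, and -0.54 without PBS replicate 1. Osteoclast markers, led by Ctsk, summed to 5376, 3388 and 3401 in PBS and 821, 750 and 483 in the group labelled treated, and 4 of the 6 passed lower with edgeR, 5 with DESeq2 and 3 with limma-voom. Without treated replicate 1, 1 passed with edgeR. Without treated replicate 2 or treated replicate 3, 0 did, with 5 at an unadjusted p under 0.05 in each case. The median log2 fold change was -2.66, and -2.19 without PBS replicate 1.

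The macrophage, osteoclast and endothelial sums did not overlap between the groups, and all 3 lay on the same side as Aqp1 and Sgk1; their part in those values was not tested. Osteoblast and osteocyte markers, led by Ibsp, summed to 4325, 1677 and 1668 in PBS and 2083, 3037 and 1741 in the group labelled treated, and 0 of 6 passed with edgeR, DESeq2 or limma-voom (0 at an unadjusted p under 0.05 in edgeR, 1 in each of the other tools). Without PBS replicate 1, which leaves 1 distinct PBS sample, the median log2 fold change was 1.76 against 0.06. Without treated replicate 2, 1 had an unadjusted p under 0.05 with edgeR. For the erythroid list, 0 of 9 passed with edgeR or limma-voom, 4 passed higher with DESeq2, and 1 had an unadjusted p under 0.05 with edgeR. That number was 9 without treated replicate 1, where 1 passed with edgeR. It was 2 without PBS replicate 2, and 0 without treated replicate 2 or treated replicate 3. The median log2 fold change was 3.27, and 5.64 without PBS replicate 1. Skeletal muscle markers, led by Acta1, summed to 1075, 1341 and 1361 in PBS and 1001, 10318 and 2732 in the group labelled treated, so treated replicate 2 stood apart. Of its 7 genes, 0 passed with edgeR, DESeq2 or limma-voom, and at an unadjusted p under 0.05 edgeR had 0 (6 without treated replicate 1), DESeq2 3 and limma-voom 0. Keratinocyte markers, led by Dsg3, stayed at sums of 15.6 to 22.1 in all 6 libraries. Of the 5 tested, 0 passed with edgeR, DESeq2 or limma-voom, and 0 had an unadjusted p under 0.05. In edgeR 1 had one without treated replicate 1 or treated replicate 3.

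Promoter sequences were searched for the letters TGGAAA, the core of the tonicity-responsive element that NFAT5 binds, on both strands; these letters contain GGAAA, the core shared with other NFAT factors. RefSeq promoters of build GRCr8, each 300 bases long from 250 before to 50 after the start, matched 8 of the 10 genes with 10 promoters; Nfat5 and Akr1b1 had none under these names and were not searched. The core was in 4 of the 10 promoters, of Sgk1, Slc6a6 and Aqp9, and in 22.7% of all 33469 promoters. The longer consensus of the tonicity-responsive element was in 1 of the 10, that of Slc6a6, and in 5.98% of all. The matches are shown with 12 bases on either side, as far as the promoter reaches, to let the reader see the flanks; capitals mark the core, which reads TTTCCA where it lies on the strand opposite to the gene. Aqp1 and Slc6a12, the genes with an unadjusted p under 0.05, each had 1 promoter searched, with no match in this window.
Slc6a6, chr4:125752334-125752363, plus strand: caagctggtattTTTCCAcccagcaggatg
Aqp9, chr8:80718385-80718414, minus strand: ctggacagtgagTGGAAAaggagaccggca
Sgk1, chr1:24805790-24805819, minus strand: tcggagattagtTGGAAAaaaaagtgaaat
Sgk1, chr1:24804782-24804801, minus strand: ctctttggacacTTTCCAaa
A match describes these letters only and is not evidence of binding, and nothing about NFAT5 follows from a window without one.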

How the data were processed

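The authors deposited raw counts, the number of reads per Ensembl rat gene in each of 6 libraries, with gene names and coordinates and without normalization. The submitters' processing notes name FastQC, Trimmomatic, HISAT2, featureCounts and DESeq2 without versions and the mouse build mm10, whereas the identifiers are those of rat genes; the use of strand and of reads shared by genes is not given in the sources used here. Groups and replicate numbers came from the sample titles. The count columns carry other names, and no source spells out the match: columns named for the treatment were taken as the treated samples, and those named IVD as the PBS samples, by their names and numbers. Every direction rests on this match.

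The test was edgeR 4.0.16 (R 4.3.3) with trimmed mean of M-values scaling, filterByExpr at a minimum count of 10, its quasi-likelihood F-test and Benjamini-Hochberg adjustment over all genes tested. A gene passed at an adjusted p under 0.05 at any fold change. PBS replicates 2 and 3 were summed as 1 sample, since 2 near-copies are not independent. Intervals of 95% were made from the log2 fold change, its SE and the test's degrees of freedom. Normalized CPM was scaled over the 6 libraries. The fit was tested on simulated data. P-values measure the spread between the rats of each group, 3 per group by the study's methods, of which the PBS pair is counted once.

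The 10 genes, the 8 related lists and the 12 marker lists were chosen with earlier results of these data known. From each related list the text names the genes that passed (at most 4 per direction) and the 2 with the most counts; Aqp2 and Aqp6 are named besides for their counts of 0. From each marker list it gives the sum, the gene with the most CPM and genes at 0. Names were matched directly, or by a unique synonym in the GRCr8 gene table. Wnk4, Cldn5, Hba-a2, Krt19, Myh1 and Krt14 were not analysed here. The table holds no transcript lengths, so levels were not compared between genes. Alternatives were DESeq2 1.42.0, limma-voom (limma 3.58.1), other scalings, filters and thresholds, a robust fit, the 6 libraries kept apart, the replicate number as a block, and each library left out.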

Additional observations from a re-analysis of the deposited data

How the results depend on the processing

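The 9 tested osmotic response and aquaporin genes kept their direction and stayed above the threshold in all 144 results under the alternatives that refit the data, 16 for each gene, and in the edgeR fit of 5 distinct samples 0 of the 9 passed at an adjusted p under 0.1. Without treated replicate 2 or treated replicate 3, 0 of all genes passed. In those fits, staying above the threshold says nothing particular about the 9. Under alternatives Aqp1 was under 0.1 with the 6 libraries kept apart, with DESeq2 (0.0625) and with the replicate block (0.0808), and Slc6a12 with the 6 libraries kept apart. Their log2 fold changes ranged from -0.88 to -0.55 for Aqp1, 0.38 to 0.58 for Slc6a12, -0.43 to -0.21 for Sgk1, 0.04 to 0.34 for Nfat5, 0.07 to 0.44 for Slc5a3, -0.29 to -0.06 for Slc6a6, 0.03 to 0.18 for Akr1b1, 0.27 to 1.29 for Aqp3 and 0.31 to 1.06 for Aqp9. The lowest adjusted p was 0.0591 for Aqp1, with the 6 libraries kept apart in edgeR. In that fit it was 0.0699 for Slc6a12. In DESeq2 and limma-voom, as in edgeR, 0 of the 9 passed.

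The count of all genes passing, 575, became 2727 (1233 higher and 1494 lower) with the 6 libraries kept apart, 2572 with DESeq2 and 1687 at an adjusted p under 0.1. It was between 0 and 566 with 1 library left out. The cause was not tested. With the replicate number as a block on the 6 libraries, 741 of 15042 genes passed. This fit keeps the near-identical pair apart. From 0, its count became 4 of 9 nucleus pulposus markers, 2 of 8 chaperones, 2 of 7 WNK and SPAK genes and 1 of 9 endothelial markers. From 1, it became 2 in the polyol list and 0 in the cartilage list. Libraries of the same number had correlations of deviations of -0.323, -0.274 and -0.079 between the groups. None correlated best with its own number. PBS replicates 2 and 3 are near-identical, so this check cannot tell numbers 2 and 3 apart and does not decide their pairing.

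Of the 19 other named genes, 268 of 303 results were unchanged, 17 lost a call, 8 gained one and 10 reversed. The calls gained were those of Aqp7 and Akr1a1 with DESeq2, Slc6a8 with the 6 libraries kept apart, Hspa4 with both of these, and Wnk1 with both and with the replicate block. Aqp11 reversed to 0.07 with the 6 libraries kept apart, 0.26 with the replicate block and 0.17 with limma-voom, and ran from -0.32 to 0.86 with 1 library left out. Ndrg1 ran from -0.14 to 0.61 there. Atp1b3, near 0, reversed to 0.01 with the 6 libraries kept apart and 0.01 with the replicate block, and ran from -0.17 to 0.08 with 1 library left out. The cause was not tested. Hsd11b1 no longer passed with limma-voom (adjusted p 0.0578).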
